A study of Mus musculus with 18 samples.

Results

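The EGF receptor family and its ligands were examined in primary murine renal proximal tubulo-interstitial epithelial cells (RPTEC), tubule cells of C57BL/6 mice bought from a vendor and grown in culture. The members were the 10 genes given by name, namely the ligand genes Egf, Tgfa, Hbegf, Areg, Ereg, Btc and Epgn and the receptor genes Egfr, Erbb2 and Erbb3, and all 10 were found among the 36528 genes of the files. RNASeq was performed on 18 samples in 6 groups of 3. Cells received vehicle (DMSO), TWEAK at 100 ng/mL, or TWEAK at 100 ng/mL together with 3 μM NIK SMI1, and were collected at 6 h or at 24 h. All groups came from the same kind of cultured cells, and no group received NIK SMI1 without TWEAK. The labels and methods name no separate animals or cell preparations for the 3 samples of a group, so SDs and p-values measured the spread between cultured samples.

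TWEAK is a cytokine of the TNF family that acts through the receptor Fn14 and turns on canonical and non-canonical NF-κB signaling, and NIK is the kinase that drives the non-canonical arm. Ligands of the EGF family are made as precursors anchored in the cell membrane, are released by metalloproteases of the ADAM family, and bind EGFR on the same or on neighbouring cells. ERBB2 binds no known ligand and acts as a partner of the other receptors, whereas ERBB3 binds neuregulins and has little kinase activity of its own. In the kidney, EGFR signaling is known for its role in the regrowth of injured tubular epithelium, and EGF itself is known as a product of the thick ascending limb and distal tubule.

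The libraries held 18040966 to 51956444 counted reads (median 35374254), so that 3 reads, the smallest count read as a level, stood for 0.0577 to 0.166 CPM (the read count of a gene scaled to the total of its sample). A gene was tested if more than 10 reads were found in at least 4 samples, which left 15521 genes. The 10 members were checked against the cell type first. All 7 epithelial markers passed the filter, with Krt18 at a mean of 4193 CPM and Cdh1 at 1230 CPM. Of 12 proximal tubule markers, 6 passed, and the sum of all 12 lay between 15.6 and 19.7 CPM in each sample. The glucose transporter gene Slc5a2 averaged 7.29 CPM, but Lrp2 averaged 0.232 CPM, Slc34a1 0.00497 CPM, and Slc22a8 had no read, so that several defining markers of the labelled segment were at or near 0. None of the 7 markers of thick ascending limb and distal tubule passed the filter, and Umod and Pvalb had no read in any sample.

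The level per length was given by the deposited RPKM (reads scaled to exonic length and to the depth of the sample). Hbegf, the heparin-binding ligand, was the most abundant member at a mean of 107.7 RPKM over the 18 samples (range 87.6 to 135.9). Tgfa followed at 37.6 RPKM, Areg, the gene of amphiregulin, at 33.5 RPKM and Egfr at 24.7 RPKM. The receptor genes Erbb3 and Erbb2 lay together at 19.03 and 19.01 RPKM, with ranges of 14.9 to 24.3 and 16.7 to 21.6 RPKM that overlapped. Lower levels were found for Btc, the gene of betacellulin, at 6.33 RPKM and for Ereg, the gene of epiregulin, at 3.27 RPKM. These RPKM values placed Hbegf at percentile 96.6 of the tested genes, Egfr at 79.7 and Ereg at 36.5. The order of the 10 members was the same when CPM was divided by the exonic length.

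Egf and Epgn were close to the detection limit on the CPM scale. Egf, the founding ligand of the family, had 2 to 37 reads per sample, a mean of 0.435 CPM and 12 samples with more than 10 reads, and it passed the filter. Epgn, the gene of epigen, had 0 to 8 reads per sample and no sample with more than 10, so it was the 1 member that could not be tested. For both genes the samples of neighbouring groups overlapped throughout the order of group means. The level of Egf thus rested on few reads. Markers of the segment known to make it were at or near 0, as were several proximal tubule markers, and a link to the level of Egf was not tested.

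**Figure D1:**
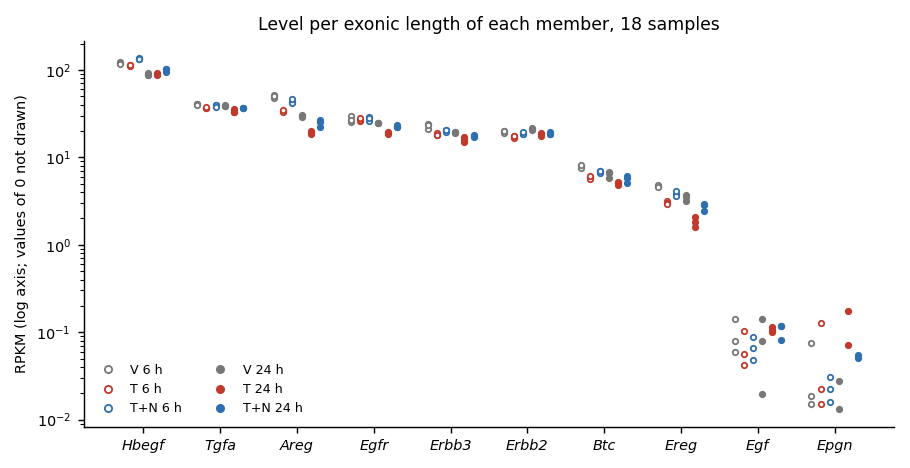
Level of each member in RPKM (log axis, values of 0 not drawn) in every sample, with 1 point per sample and symbols by group (V vehicle, T TWEAK, T+N TWEAK with NIK SMI1; open 6 h, filled 24 h). Members are ordered by their mean, from Hbegf at 107.7 RPKM to Epgn at 0.0409 RPKM, and Egf and Epgn lie far below the other 8.

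In the GENCODE M21 annotation of GRCm38, 4 ligand genes sit beside each other on chromosome 5. Their order is Epgn (91027464 to 91035215, plus strand), Ereg (91074622 to 91093646, plus strand), Areg (91139599 to 91148432, plus strand) and Btc (91357261 to 91402994, minus strand), between the protein-coding genes Mthfd2l and Parm1. Egfr (16752203 to 16918158, plus strand) and Erbb2 (98412470 to 98437716, plus strand) are on chromosome 11, Erbb3 is on chromosome 10 (128567523 to 128589652, minus strand), Egf on chromosome 3 (129677565 to 129755316, minus strand) and Tgfa on chromosome 6 (86195223 to 86275719, plus strand). Exons of Ereg overlap those of Gm19610, exons of Erbb2 those of Mien1, exons of Tgfa those of Gm43917 and exons of Egf those of Gm42697 and 6330410L21Rik, each on the opposite strand. The library kit does not mark strand, so reads in these stretches cannot be told apart.

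Promoters are shown for 3 members that fell with TWEAK, namely the neighbours Areg and Btc, which fell at both times, and Egfr, which fell at 24 h alone, to set their sequences side by side. The 250 bases before the start are from RefSeq (GRCm38.p6), 5′ to 3′ on the strand of the gene, with motif matches in capitals. Areg is chr5:91139349-91139598 (plus strand), Btc is chr5:91402995-91403244 (minus strand) and Egfr is chr11:16751953-16752202 (plus strand).
Areg: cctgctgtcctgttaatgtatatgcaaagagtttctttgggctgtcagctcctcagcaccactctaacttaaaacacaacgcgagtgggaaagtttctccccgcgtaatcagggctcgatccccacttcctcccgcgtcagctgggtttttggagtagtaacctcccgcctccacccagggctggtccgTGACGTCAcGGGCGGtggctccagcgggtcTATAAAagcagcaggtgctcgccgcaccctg
Btc: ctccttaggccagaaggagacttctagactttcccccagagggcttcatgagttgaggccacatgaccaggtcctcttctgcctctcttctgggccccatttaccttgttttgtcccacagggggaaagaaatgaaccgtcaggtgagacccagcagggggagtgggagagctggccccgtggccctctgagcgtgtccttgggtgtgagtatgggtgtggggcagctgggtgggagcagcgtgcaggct
Egfr: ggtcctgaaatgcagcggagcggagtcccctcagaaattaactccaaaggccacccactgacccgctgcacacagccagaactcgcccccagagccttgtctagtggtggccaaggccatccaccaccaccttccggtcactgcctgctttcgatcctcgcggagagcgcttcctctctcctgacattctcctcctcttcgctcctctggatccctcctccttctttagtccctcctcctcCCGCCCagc
The search covered both strands for the cAMP response element TGACGTCA, the GC box GGGCGG, the TATA box TATAAA, the AP-1 site TGANTCA, and the NF-κB and serum response elements by their consensus. The promoter of Areg held a cAMP response element at bases -61 to -54 from the start, a GC box at -52 to -47 and a TATA box at -31 to -26, none of which overlap. The window of Egfr held a GC box on the opposite strand at -9 to -4, and no match lay in the window of Btc. Over 32851 promoters of the same length, the shares with a match were 1.55% for the cAMP response element, 32.7% for the GC box, 12.4% for the TATA box, 6.75% for AP-1, 3.9% for NF-κB and 1.47% for the serum response element. Promoters of 7 members were found in the table (not Ereg, Erbb3 or Hbegf). A match is a run of letters, and none of these data measure binding.

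The comparison of TWEAK with vehicle shows what TWEAK did to the family. At 6 h, 6 of the 9 tested members were lower with TWEAK and none was higher (Areg, Ereg, Btc, Tgfa, Erbb2 and Erbb3, at an adjusted p under 0.05 in the edgeR quasi-likelihood test), where 12.0% of all tested genes were lower. At 24 h, 7 of 9 were lower and none was higher, with Egfr as the addition, where 20.7% of all tested genes were lower and 39.0% were called in either direction. Over the 9 members, the log2 fold change had a median of -0.30 at 6 h and -0.28 at 24 h, and that of all tested genes was -0.0034 and -0.0055. As these are bulk samples, fewer cells of a type and less RNA per cell cannot be told apart.

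Areg and Ereg fell most. Amphiregulin is a ligand of EGFR released by cleavage from the cell surface. The 3 vehicle samples at 6 h held 58.7, 64.1 and 63.1 CPM of Areg, and the 3 TWEAK samples held 42.5, 41.0 and 43.3 CPM. At 24 h the values of Areg were 38.5, 37.1 and 35.6 CPM with vehicle and 24.9, 24.2 and 23.5 CPM with TWEAK. Every TWEAK sample lay below every vehicle sample of its time. The log2 fold change of Areg was -0.54 (standard error 0.052, adjusted p = 3.64e-09) at 6 h and -0.63 (standard error 0.0593, adjusted p = 1.53e-09) at 24 h.

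Epiregulin is a ligand of EGFR and ERBB4. Ereg was at 20.1, 20.6 and 19.8 CPM with vehicle at 6 h and at 13.8, 13.1 and 12.6 CPM with TWEAK. At 24 h its levels were 15.1, 16.2 and 13.6 CPM with vehicle and 8.86, 7.83 and 6.91 CPM with TWEAK, the lowest of all groups. The groups did not overlap at either time. On the log2 scale the fold change of Ereg was -0.60 (standard error 0.0767, adjusted p = 5.91e-07) at 6 h and -0.95 (standard error 0.0892, adjusted p = 1.26e-09) at 24 h, which is a fall to 0.517 of the vehicle level at 24 h (95% interval 0.455 to 0.587).

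Btc and Tgfa fell by less. Betacellulin, another ligand of EGFR and ERBB4, had 23.9, 22.9 and 24.9 CPM with vehicle and 17.8, 17.2 and 18.4 CPM with TWEAK at 6 h. At 24 h Btc was at 20.0, 17.4 and 20.4 CPM with vehicle and at 14.4, 15.3 and 15.9 CPM with TWEAK, again without overlap. For Btc this gave a log2 fold change of -0.42 (adjusted p = 1.61e-05, standard error 0.0662) at 6 h and -0.34 (standard error 0.0723, adjusted p = 0.000378) at 24 h. Transforming growth factor alpha, a ligand of EGFR, is encoded by Tgfa. Its transcript was at 179.4, 179.3 and 176.5 CPM with vehicle and at 163.9, 164.5 and 164.5 CPM with TWEAK at 6 h. Its 24 h samples held 173.2, 170.0 and 171.1 CPM with vehicle and 143.9, 144.5 and 156.9 CPM with TWEAK. The TWEAK samples were the lower ones at both times, by a log2 fold change of Tgfa of -0.11 (standard error 0.0345, adjusted p = 0.023) at 6 h and -0.21 (standard error 0.0353, adjusted p = 2.67e-05) at 24 h. The 6 h call of Tgfa was lost in 6 of 11 alternatives, among them leaving out vehicle sample 1 or 2 or TWEAK sample 1 or 2 (adjusted p from 0.0512 to 0.0804).

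Hbegf did not pass the test in this comparison. Heparin-binding EGF-like growth factor is a ligand of EGFR and ERBB4. At 6 h its transcript was at 297.6, 296.3 and 292.7 CPM with vehicle and at 281.6, 274.4 and 282.8 CPM with TWEAK. At 24 h it was at 219.0, 231.1 and 218.5 CPM with vehicle and at 219.8, 217.9 and 226.0 CPM with TWEAK. The TWEAK samples lay below vehicle at 6 h and among the vehicle samples at 24 h. Its log2 fold change with TWEAK was -0.07 at 6 h (95% interval -0.14 to 0.005, adjusted p = 0.187) and -0.01 at 24 h (95% interval -0.085 to 0.065, adjusted p = 0.861).

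Among the receptor genes, Egfr differed with TWEAK at 24 h and not detectably at 6 h. The 6 h samples held 199.4, 174.7 and 184.9 CPM of Egfr with vehicle and 177.5, 183.0 and 189.6 CPM with TWEAK. At 24 h the levels of Egfr were 168.6, 169.4 and 169.4 CPM with vehicle and 134.1, 127.6 and 130 CPM with TWEAK. The groups overlapped at 6 h and were well apart at 24 h. The log2 fold change of Egfr was -0.01 (95% interval -0.10 to 0.081, adjusted p = 0.906) at 6 h and -0.38 (standard error 0.0462, adjusted p = 1.87e-07) at 24 h. The difference between the 2 effects was -0.36 (standard error 0.0643, adjusted p = 0.000287, edgeR interaction test), and Egfr was the 1 of 9 members with such a call, where 8.91% of all tested genes had one (5.67% lower and 3.24% higher). The same test gave -0.35 for Ereg (adjusted p = 0.0615), which was called without vehicle sample 3 or TWEAK sample 1 at 24 h (adjusted p from 0.0239 to 0.0371).

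Erbb2 and Erbb3 fell at both times. Erbb2, the receptor gene without a known ligand, was at 97.9, 103.3 and 105.0 CPM with vehicle and at 87.4, 91.9 and 90.6 CPM with TWEAK at 6 h. At 24 h Erbb2 was at 107.6, 112.5 and 110.4 CPM with vehicle and at 97.6, 97.1 and 91.7 CPM with TWEAK, and the groups stood apart at both times. This was a log2 fold change of -0.17 (adjusted p = 0.000814, standard error 0.0368) at 6 h and -0.21 (standard error 0.0376, adjusted p = 6.54e-05) at 24 h. Erbb3, the neuregulin receptor gene, was at 100.5, 88.1 and 98.4 CPM with vehicle and at 75.4, 79.5 and 75.3 CPM with TWEAK at 6 h. At 24 h Erbb3 was at 80.4, 80.9 and 80.7 CPM with vehicle and at 71.5, 62.7 and 65.7 CPM with TWEAK. No TWEAK sample reached the lowest vehicle sample, and the log2 fold change of Erbb3 was -0.30 (standard error 0.0475, adjusted p = 1.32e-05) at 6 h and -0.28 (standard error 0.05, adjusted p = 4.47e-05) at 24 h.

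Egf showed no call with TWEAK. Its log2 fold change was -0.47 (95% interval -1.30 to 0.37) at 6 h and 0.43 (95% interval -0.46 to 1.33) at 24 h, and these few reads left wide intervals. An exact permutation test of 3 against 3 samples cannot give a p below 0.1, and separation of the samples is therefore given as a count. The TWEAK samples lay wholly below the vehicle samples for 7 members at 6 h (20.2% of all tested genes) and for 7 at 24 h (25.6%).

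**Figure D2:**
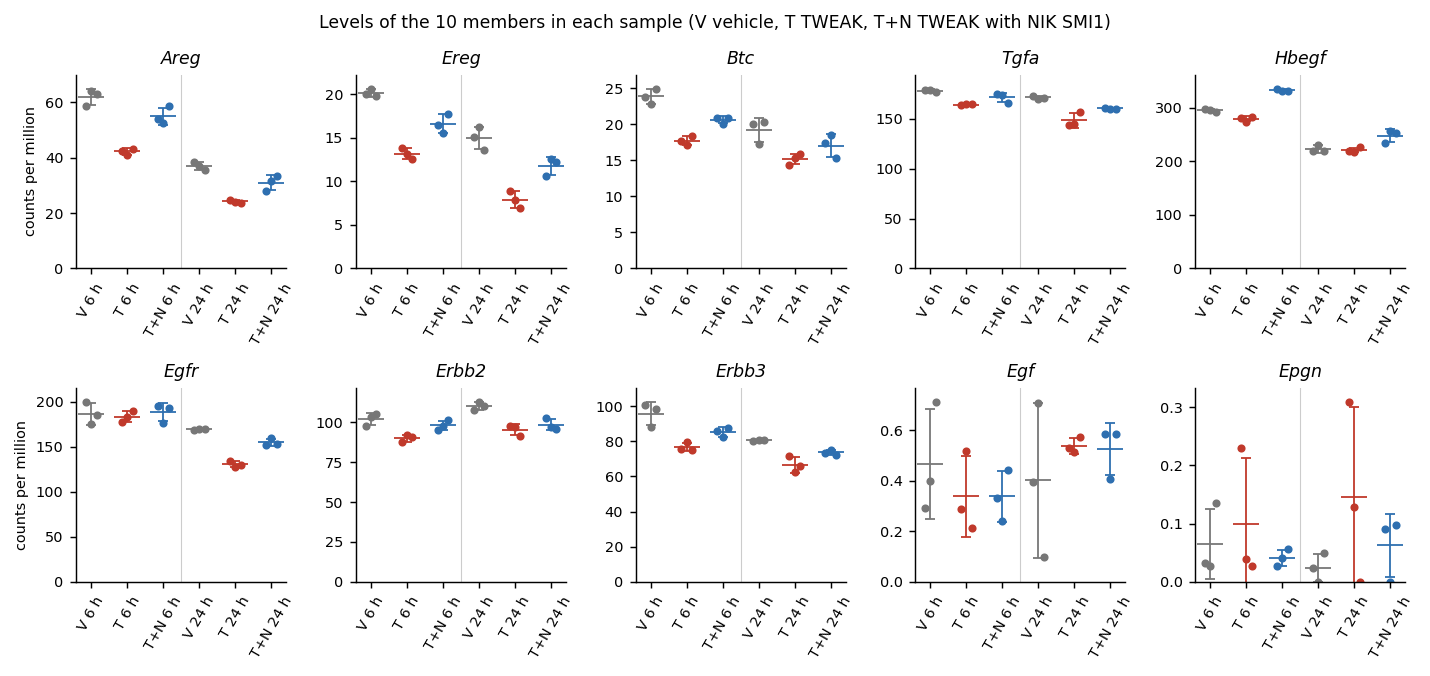
Level of each member in CPM (linear axis from 0) in every sample, with 3 points per group and horizontal bars and whiskers for mean and SD (n = 3; V vehicle, T TWEAK, T+N TWEAK with NIK SMI1). TWEAK samples of Areg and Ereg lie below the vehicle samples at both times, those of Egfr only at 24 h, and Hbegf is highest with the inhibitor.

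The comparison of TWEAK with NIK SMI1 against TWEAK shows which levels depended on whether the inhibitor was present. At 6 h, 5 of 9 tested members were higher with the inhibitor (Areg, Ereg, Btc, Hbegf and Erbb2) and none was lower, where 5.34% of all tested genes were higher and 5.7% lower. At 24 h, 6 of 9 were higher (Areg, Ereg, Tgfa, Hbegf, Egfr and Erbb3) and none was lower, where 10.2% of all tested genes were higher and 8.29% lower. The inhibitor samples lay wholly above the TWEAK samples for these 6 at 24 h (18.9% of all tested genes). Over the members, the log2 fold change had a median of 0.14 at 6 h and 0.16 at 24 h, against 0.0029 and 0.0083 over all tested genes. This comparison and that of TWEAK with vehicle share the TWEAK samples, so that a low TWEAK sample moves both.

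Areg was at 53.9, 52.6 and 58.5 CPM with TWEAK and NIK SMI1 at 6 h and at 28.1, 31.7 and 33.3 CPM at 24 h. All 3 inhibitor samples lay above the TWEAK samples of their time. Areg had a log2 fold change of 0.37 (adjusted p = 1.65e-05, standard error 0.054) at 6 h and 0.35 (standard error 0.0584, adjusted p = 5.02e-05) at 24 h. Ereg was at 16.5, 15.6 and 17.8 CPM at 6 h and at 10.6, 12.6 and 12.2 CPM at 24 h in the samples with inhibitor. These were also above all TWEAK samples, by a log2 fold change of Ereg of 0.32 (standard error 0.0817, adjusted p = 0.0085) at 6 h and 0.59 (standard error 0.0884, adjusted p = 1.16e-05) at 24 h.

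Hbegf rose with the inhibitor, although TWEAK itself had shown no call. The 3 samples with inhibitor held 335.4, 331.6 and 331.3 CPM of Hbegf at 6 h, and 233.7, 257.6 and 252.3 CPM at 24 h. They were the highest of the 3 treatments at each time, above vehicle as well as above TWEAK. Against TWEAK, the log2 fold change of Hbegf was 0.25 (standard error 0.0358, adjusted p = 1.72e-05) at 6 h and 0.16 (standard error 0.0361, adjusted p = 0.00202) at 24 h. Against vehicle it was 0.18 (standard error 0.0358, adjusted p = 0.000949) at 6 h and 0.15 (standard error 0.0364, adjusted p = 0.00377) at 24 h. Since no samples received NIK SMI1 alone, an effect of the compound on Hbegf without TWEAK was not measured.

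Egfr differed with the inhibitor at 24 h. Its levels with TWEAK and NIK SMI1 were 195.1, 176.6 and 193.0 CPM at 6 h, within the range of the other groups, and 151.6, 159.6 and 152.8 CPM at 24 h, between those of TWEAK and of vehicle. Against TWEAK, the log2 fold change of Egfr was 0.03 (95% interval -0.061 to 0.13, adjusted p = 0.733) at 6 h and 0.24 (standard error 0.0457, adjusted p = 0.000278) at 24 h. The difference between the inhibitor effects at the 2 times was 0.21 (standard error 0.0643, adjusted p = 0.06) and was not called in edgeR, whereas DESeq2 called it (adjusted p = 0.0367), as did edgeR without a filter (adjusted p = 0.00346), on the groups compared alone (adjusted p = 0.0307), and without inhibitor sample 1 or 3 at 6 h or inhibitor sample 1 at 24 h (adjusted p from 0.0466 to 0.0489). In the edgeR fit of all 18 samples with the filter, no member was called for a difference of the inhibitor effect between the times. Among all tested genes, 4.73% were called there (3.11% higher and 1.62% lower). An unadjusted p under 0.05 was found for 2 of 9 members, Ereg and Egfr, and for 18.6% of all tested genes.

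The remaining calls with the inhibitor were small and depended on the fit. Btc was at 20.9, 20.1 and 21.0 CPM at 6 h with inhibitor, above the TWEAK samples, with a log2 fold change of 0.21 (adjusted p = 0.0485), and its 24 h value of 0.16 was not called (adjusted p = 0.125). Erbb2 was at 95.5, 97.4 and 101.4 CPM at 6 h, a log2 fold change of 0.12 (adjusted p = 0.0456), and at 24 h its value was 0.04 (adjusted p = 0.487) with samples that overlapped those of TWEAK. Both 6 h calls were lost whichever of the 6 samples was left out (adjusted p from 0.0512 to 0.169 for Btc and from 0.0518 to 0.25 for Erbb2). Tgfa was at 161.1, 160.2 and 160.1 CPM at 24 h with inhibitor, a log2 fold change of 0.11 (adjusted p = 0.0315), and Erbb3 at 73.3, 75.2 and 72.4 CPM, a log2 fold change of 0.15 (adjusted p = 0.0365). These samples stood above the TWEAK samples, but each of the 2 calls was lost on leaving out any of 5 of the 6 samples, the exceptions being TWEAK sample 3 for Tgfa and TWEAK sample 1 for Erbb3 (adjusted p from 0.0596 to 0.179 and from 0.0569 to 0.25). The 6 h values of 0.06 for Tgfa (adjusted p = 0.338) and 0.14 for Erbb3 (adjusted p = 0.0583) were not called, and neither was Egf at either time.

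**Figure D3:**
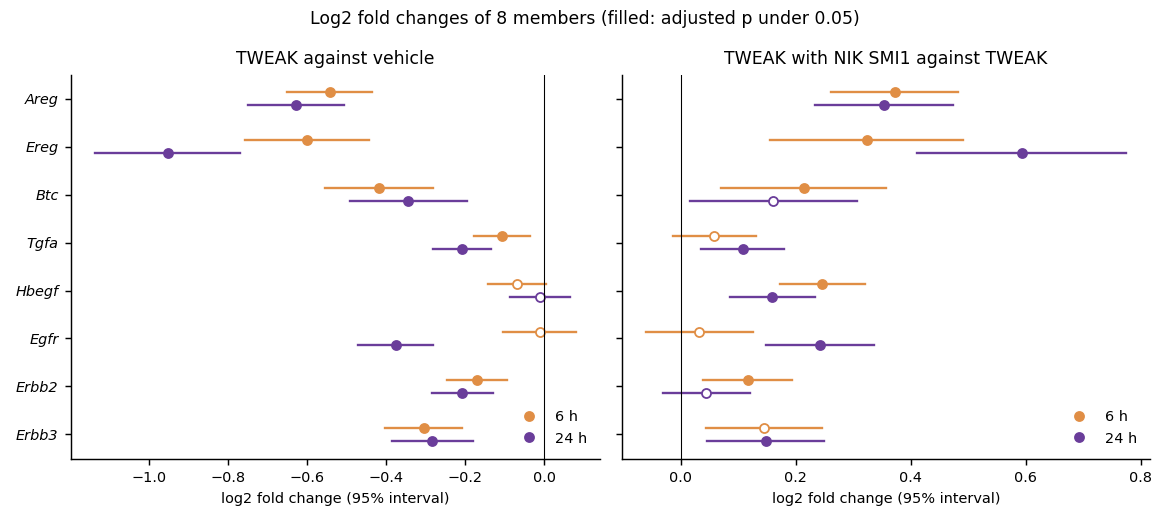
Log2 fold changes of 8 members with 95% intervals at 6 h and 24 h for TWEAK against vehicle (left) and TWEAK with NIK SMI1 against TWEAK (right), where filled points have an adjusted p under 0.05. The filled points lie left of 0 in the left panel and right of 0 in the right panel, and the largest is that of Ereg at 24 h, at -0.95.

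Members that were lower with TWEAK and also higher with the inhibitor were counted at each time. At 6 h they were Areg, Btc, Erbb2 and Ereg, 4 of the 6 that were lower, and at 24 h they were Areg, Egfr, Erbb3, Ereg and Tgfa, 5 of the 7 that were lower. Among all tested genes, 34.9% of those lower with TWEAK at 6 h and 46.1% at 24 h were also higher with the inhibitor. The TWEAK samples enter both sides of this count. The inhibitor calls of Btc and Erbb2 at 6 h were lost in all 6 fits that left out 1 sample. Those of Tgfa and Erbb3 at 24 h were lost in 5 of 6 such fits. Without these genes, Areg and Ereg remain at 6 h, and Areg, Egfr and Ereg at 24 h, so the counts of members rest in part on unstable calls.

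Compared with vehicle, Areg and Ereg were still lower with TWEAK and NIK SMI1 at both times, and Hbegf was higher. At 6 h, 4 of 9 tested members were lower (Areg, Ereg, Btc and Erbb3; 6.7% of all tested genes were lower) and Hbegf was higher (7.24% were higher, 13.9% called in all). At 24 h, 5 of 9 were lower (Areg, Ereg, Tgfa, Egfr and Erbb2; 9.83% of all tested genes) and Hbegf was higher (8.07%). As a share of the mean of vehicle, Areg was at 68.2% ± 1.91 (SD, n = 3) with TWEAK and 88.8% ± 4.99 with the inhibitor added at 6 h, and at 65.2% ± 1.92 and 83.6% ± 7.20 at 24 h. Ereg was at 65.4% ± 3.10 and 82.4% ± 5.53 at 6 h, and at 52.5% ± 6.50 and 78.6% ± 6.91 at 24 h. Egfr at 24 h was at 77.2% ± 1.94 with TWEAK and 91.4% ± 2.57 with the inhibitor added. These shares show the inhibitor samples between TWEAK and vehicle for each of the 3 genes.

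The differences from vehicle were tested in the same fit. The log2 fold change of Areg with inhibitor against vehicle was -0.17 (adjusted p = 0.0301) at 6 h and -0.27 (adjusted p = 0.000883) at 24 h. That of Ereg was -0.28 (adjusted p = 0.0179) at 6 h and -0.36 (adjusted p = 0.00264) at 24 h, and that of Egfr at 24 h was -0.13 (adjusted p = 0.0419). Erbb2 stood at -0.16 at 24 h (adjusted p = 0.0022), with 102.6, 97.3 and 95.8 CPM, close to its TWEAK samples. The other calls were -0.20 for Btc (adjusted p = 0.0455) and -0.16 for Erbb3 (adjusted p = 0.0263) at 6 h and -0.10 for Tgfa at 24 h (adjusted p = 0.0477). The calls of Hbegf at both times and of Areg, Ereg and Erbb2 at 24 h held in each alternative tried. At 24 h no alternative matched the samples in reads of pancreatic islet genes, given below, which set all vehicle samples apart from all inhibitor samples. The others were lost on leaving out inhibitor sample 1 or 2 for all 4 genes at 6 h, vehicle sample 1 for Btc and Erbb3, 2 for Areg or 3 for Areg, Btc and Erbb3, inhibitor sample 3 for Btc, any sample for Tgfa at 24 h, and any but inhibitor sample 2 for Egfr at 24 h (adjusted p from 0.0592 to 0.153 at 6 h and from 0.0817 to 0.149 at 24 h).

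**Figure D4:**
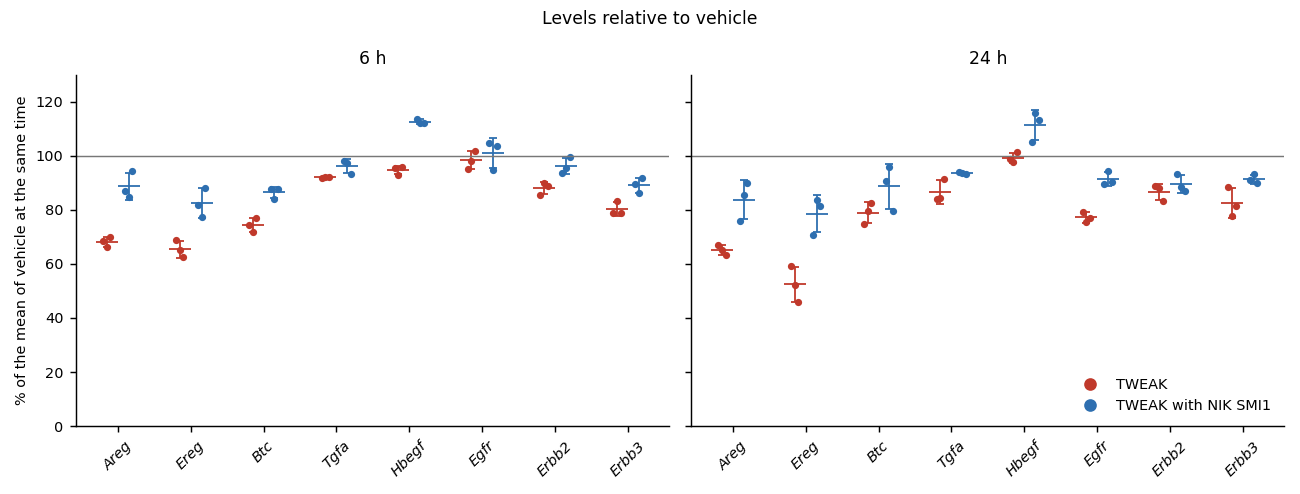
Level of 8 members as % of the mean of the vehicle samples at the same time, with 1 point per sample and mean and SD (n = 3) for TWEAK and for TWEAK with NIK SMI1. At 24 h the TWEAK samples of Ereg average 52.5% and those with inhibitor 78.6%, while Hbegf lies above 100% with inhibitor at both times.

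Most members were lower in vehicle samples at 24 h than at 6 h, the direction also seen with TWEAK. Time in culture and any other difference between the collections at 6 h and 24 h cannot be told apart. Between vehicle at 24 h and vehicle at 6 h, 7 of 9 tested members were lower and none was higher, where 14.4% of all tested genes were lower and 29.9% were called in either direction. Areg fell by 0.80 on the log2 scale (standard error 0.0548, adjusted p = 5.93e-12), from a mean of 61.96 ± 2.88 to 37.1 ± 1.45 CPM (SD, n = 3 each). Ereg fell by 0.49 (adjusted p = 2.27e-05), Hbegf by 0.47 (adjusted p = 5.94e-11), Btc by 0.37 (adjusted p = 0.000132), Erbb3 by 0.31 (adjusted p = 1.38e-05), Egfr by 0.21 (adjusted p = 0.000935) and Tgfa by 0.12 (adjusted p = 0.0084). Erbb2 was the exception among the 8 well-measured members, with vehicle samples at 24 h above those at 6 h in CPM but a log2 fold change of 0.04 after scaling (95% interval -0.035 to 0.12, adjusted p = 0.444). The scaling factors lay between 0.964 and 0.987 at 6 h and between 1.02 and 1.03 at 24 h.

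In mean CPM, before the scaling of the fit, the 6 groups stood in the same order for Ereg, Btc, Tgfa and Erbb3. From the highest, vehicle at 6 h came first, then TWEAK with inhibitor at 6 h and vehicle at 24 h. Below these came TWEAK at 6 h, TWEAK with inhibitor at 24 h and TWEAK at 24 h. After scaling, vehicle at 24 h lay slightly below TWEAK at 6 h for Tgfa and Erbb3. Against vehicle at 6 h, their log2 fold changes were -0.123 and -0.107 for Tgfa, and -0.312 and -0.305 for Erbb3. In CPM, Areg had the same highest and lowest groups, with TWEAK at 6 h above vehicle at 24 h. For Areg, all neighbours in the order stood apart, from 61.96 CPM with vehicle at 6 h through 55.0, 42.3, 37.1 and 31.0 CPM to 24.2 CPM with TWEAK at 24 h. For Ereg, TWEAK with inhibitor at 6 h, vehicle at 24 h and TWEAK at 6 h were neighbours whose samples overlapped, at means of 16.6, 14.99 and 13.2 CPM. For Btc, all neighbours below vehicle at 6 h overlapped. The ratio of the highest to the lowest group mean in CPM was 2.56 for Areg and for Ereg, 1.57 for Btc, 1.504 for Hbegf, 1.44 for Egfr and Erbb3, 1.23 for Erbb2 and 1.20 for Tgfa. In CPM, Areg and Ereg thus varied most among the well-measured members, and Tgfa least. After scaling, Erbb2 spanned less than Tgfa. The log2 fold change of vehicle over time was -0.12 for Tgfa and 0.04 for Erbb2, and TWEAK at 24 h changed each by -0.21.

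Other genes of the pathway were described from 5 lists by function. Among all tested genes, 11.7% were higher and 12.0% lower with TWEAK at 6 h, and 18.3% were higher and 20.7% lower at 24 h, and the counts of each list are set against these shares. Of the other ERBB receptor and neuregulin genes, Nrg3 had no read and Erbb4 did not pass the filter, and 3 of 5 were tested. Nrg1, a ligand of ERBB3 and ERBB4, rose with TWEAK from 84.5, 80.4 and 81.7 CPM to 133.1, 128.3 and 129.5 CPM at 6 h, and from 93.2, 91.8 and 85.9 CPM to 169.4, 160.1 and 166.6 CPM at 24 h. At each time Nrg1 was higher and Erbb3 lower with TWEAK than with vehicle. This did not hold across all groups. Vehicle at 24 h had lower means than TWEAK with inhibitor at 6 h for Erbb3 (80.7 against 85.3 CPM) and also for Nrg1 (90.3 against 126.1 CPM). A link between these genes was not tested. In the fit, Nrg1 had a log2 fold change of 0.68 (adjusted p = 3.67e-13) at 6 h and 0.87 (adjusted p = 1.36e-15) at 24 h. With the inhibitor it was -0.05 against TWEAK at 6 h (adjusted p = 0.481) and fell by 0.14 at 24 h (adjusted p = 0.0159). Nrg2 had 18 to 81 reads per sample, fell by 1.0 with TWEAK at 6 h (adjusted p = 0.0159) and by 0.93 at 24 h (adjusted p = 0.00737), and rose by 1.10 and 0.84 with the inhibitor (adjusted p = 0.0266 and 0.0238).

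Of the 10 genes for shedding of ligands, 4 were higher and 3 lower with TWEAK at 6 h, and 5 were higher and 4 lower at 24 h, against 11.7% and 12.0% of all tested genes at 6 h and 18.3% and 20.7% at 24 h. Adam8, a metalloprotease gene, rose by 0.71 on the log2 scale at 6 h (adjusted p = 8.78e-14) and by 0.71 at 24 h (adjusted p = 1.22e-13), and fell by 0.46 and 0.67 with the inhibitor (adjusted p = 4.14e-09 and 1.5e-12). At 24 h its mean with inhibitor, 73.1 CPM, was near that of vehicle at 71.0 CPM. Adam17, the gene of the main sheddase of several EGFR ligands, rose by 0.29 (adjusted p = 5.03e-07) and 0.24 (adjusted p = 7.01e-06) and fell by 0.20 and 0.15 with the inhibitor (adjusted p = 0.000348 and 0.0049). Adam17 was named after its values were seen. Rhbdf2, which helps ADAM17 to reach the cell surface, rose by 0.48 and 0.47 with TWEAK (adjusted p = 4.61e-10 and 6.45e-10). Adam19 rose by 1.72 at 24 h (adjusted p = 1.43e-06) from a low mean of 0.721 to 2.41 CPM. Timp3, an inhibitor of ADAM17, fell by 0.43 and 0.46 (adjusted p = 0.0349 and 0.0434). Other ADAM genes were called lower with TWEAK. Adam10 was lower at both times, from a mean of 139.8 to 126.4 CPM at 6 h and from 147.3 to 124.3 CPM at 24 h. Adam9 and Adam15 were lower at 24 h, and Adam12 was lower at 6 h but higher at 24 h. These genes were also named after their values were seen.

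Of the 16 feedback inhibitors and genes of receptor turnover, 2 were higher and 7 lower with TWEAK at 6 h, and 3 were higher and 6 lower at 24 h, against 11.7% and 12.0% of all tested genes at 6 h and 18.3% and 20.7% at 24 h. Spry1 and Spry2, inhibitors of receptor tyrosine kinase signaling, fell by 0.41 and 0.30 at 6 h (adjusted p = 1.22e-05 and 0.00105) and by 0.38 each at 24 h (adjusted p = 1.98e-05 and 9.56e-05). Spred1, an inhibitor of the Ras-ERK route, fell by 0.32 at 24 h (adjusted p = 4.23e-07). Cblb, a ubiquitin ligase, rose by 0.22 and 0.33 (adjusted p = 0.00244 and 3.41e-05). Of the 23 adaptors and kinases, 1 was higher and 3 lower at 6 h, and 9 were higher and 6 lower at 24 h, with medians near 0. Eps8, a substrate of EGFR, fell furthest, by 0.69 and 1.07 (adjusted p = 1.07e-12 and 9.04e-17), and rose by 0.31 and 0.53 with the inhibitor (adjusted p = 1.86e-05 and 7.86e-10). The adaptor gene Shc1 fell by 0.27 at 24 h (adjusted p = 5.09e-07), Pik3r1 by 0.34 (adjusted p = 2.31e-05) and Pik3cb by 0.23 (adjusted p = 5.82e-05), both of which encode subunits of phosphoinositide 3-kinase. Pik3ca, another subunit gene, went the other way and was among the 9 called higher at 24 h. Its mean was 72.8 CPM with vehicle and 83.6 CPM with TWEAK.

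Genes known to respond to ERK went both ways. Of 15 such genes, 4 were higher and 7 lower with TWEAK at 6 h, and 3 were higher and 6 lower at 24 h, against 11.7% and 12.0% of all tested genes at 6 h and 18.3% and 20.7% at 24 h. The median log2 fold changes were -0.0073 and -0.018. Dusp6, an ERK phosphatase, fell by 0.47 at 6 h (adjusted p = 1.07e-13) and 0.65 at 24 h (adjusted p = 1.15e-16), and rose by 0.28 and 0.37 with the inhibitor (adjusted p = 3.67e-08 and 6.14e-11). Egr3, a transcription factor gene, fell by 0.85 and 1.23 (adjusted p = 0.00129 and 0.000281), and Ptgs2, which encodes a prostaglandin synthase, by 0.36 and 0.70 (adjusted p = 0.000152 and 1.86e-08). In the opposite direction, Myc rose by 0.41 and 0.66 (adjusted p = 1.52e-10 and 8.41e-15). RNA levels do not show whether the receptors or ERK were active, and this was not measured.

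The genes whose pattern was most like that of a member were found by Pearson's r of scaled log2 CPM over the 18 samples, among 12581 genes with a mean of at least 1 CPM. Areg was most like Lratd1 (r = 0.983), Dll4 (r = 0.982) and Capn2 (r = 0.981). Ereg was most like Pxdc1 (r = 0.98), Btc like Col8a1 (r = 0.964), Tgfa like Il24 (r = 0.98) and Hbegf like Niban2 (r = 0.962). Egfr was most like Slc12a2 (r = 0.981), Erbb2 like Pwwp2b (r = 0.96) and Erbb3 like Tafa2 (r = 0.966). Among the members, r was highest between Areg and Ereg (0.942) and lowest between Egf and Egfr (-0.364). These values share the 6 groups and 2 times of the design, and describe the samples without a test.

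Other markers moved with the groups. The sum of the 7 epithelial markers lay between 10190 and 10660 CPM with vehicle, 9431 and 9780 CPM with TWEAK and 9985 and 10590 CPM with inhibitor at 6 h, and between 9105 and 9260, 8013 and 8124, and 8848 and 8855 CPM at 24 h. The list did not move as one: Krt18, Krt8, Krt19, Pax8 and Pax2 had lower means with TWEAK at both times, but Epcam went from 720.9 to 1292 CPM at 6 h and from 649 to 1214 CPM at 24 h, with 843.4 and 884.2 CPM when the inhibitor was added. Cdh1 was at 1370 CPM with vehicle and 1439 CPM with TWEAK at 6 h, and at 1109 and 1029 CPM at 24 h. Of the podocyte markers, Podxl and Synpo passed the filter. Podxl lay between 385.3 and 389.6 CPM with vehicle, 335.3 and 341.6 CPM with TWEAK and 378.8 and 394.9 CPM with inhibitor at 6 h, and between 327.9 and 338.9, 240.7 and 249.8, and 287.1 and 295.1 CPM at 24 h. Synpo lay between 56.2 and 58.6, 31.8 and 36.3, and 44.8 and 45.5 CPM at 6 h, and between 66.5 and 76.2, 35.2 and 37.5, and 50.2 and 52.7 CPM at 24 h, in the same order of groups. The sum of 7 leukocyte markers, of which Cd68 and Csf1r passed the filter and Cd3e had no read, lay between 18.5 and 19.6 CPM with vehicle, 18.8 and 21.3 CPM with TWEAK and 18.5 and 18.96 CPM with inhibitor at 6 h, and between 21.2 and 22.3, 24.3 and 26, and 19.8 and 21.1 CPM at 24 h. At 24 h Csf1r averaged 8.10, 11.9 and 8.41 CPM in these groups, while Ptprc was at or below 0.304 CPM in every sample. The part of these markers in the results on the members was not tested.

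Reads of pancreatic islet genes set some libraries apart. The sum of 10 islet markers, of which 7 passed the filter and Ppy had no read, was 14.4 to 31.5 CPM in 13 samples. It was 4.66 CPM in TWEAK sample 3 at 24 h, 0.407 CPM in TWEAK sample 2 at 24 h, and 0.319 to 0.52 CPM in the 3 samples with TWEAK and NIK SMI1 at 24 h. With TWEAK sample 2 as the only TWEAK sample at 24 h, which matches the inhibitor samples in islet reads, the same number of members, 6, were called with the inhibitor, Areg at 0.36 (adjusted p = 0.0054), Ereg at 0.59 (adjusted p = 0.00105), Egfr at 0.28 (adjusted p = 0.00657) and Hbegf at 0.19 (adjusted p = 0.0226) among them. With TWEAK sample 1 as the only TWEAK sample at 24 h, which matches vehicle in islet reads, 6 members were lower than vehicle and Erbb3 lost its call (log2 fold change -0.17, adjusted p = 0.0677). These fits take the lone sample to vary like those of the other groups. No matched fit was possible for TWEAK with NIK SMI1 against vehicle at 24 h, where all vehicle samples held 15.2 to 21.7 CPM of islet reads. In that comparison the treatment and the difference in islet reads cannot be told apart.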

How the data were processed

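Transcripts of murine RPTEC were sequenced in 18 libraries. The authors used GSNAP within HTSeqGenie to align the reads (mouse, NCBI build 37). They deposited, per gene, the raw count of uniquely aligned reads in exons, the RPKM value scaled by exonic length and by the reads of the sample, and that length in bases. The submitters' processing notes also name DESeq2. Tests used counts alone, and RPKM served to compare levels between genes. Symbols were matched to 31049 of 36528 identifiers by Entrez Gene ID; positions are from GENCODE M21 (GRCm38) and promoters from RefSeq (GRCm38.p6), and nothing was converted from build 37.

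The filter kept genes over 10 reads in at least 4 samples. A single edgeR fit (version 4.0.16, R 4.3.3) of the 6 groups with TMM scaling gave quasi-likelihood p-values, with Benjamini-Hochberg adjustment over all 15521 genes kept. A call is an adjusted p under 0.05, and standard errors come from the F statistic. The study's methods used DESeq2, run here as an alternative (version 1.42.0), beside DESeq2 size factors in edgeR, no filter, filterByExpr, fits of the groups compared alone and leaving out each sample. The common biological coefficient of variation was 0.0404. Samples of a group differed by more than counting noise (chi-square per gene 2.14 to 9.32). With 18040966 to 51956444 counted reads per sample, 3 reads stand for 0.0577 to 0.166 CPM, which covers counting error only.

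All 10 members are named. Of each pathway list, the rule names at most 4 genes, those called with a fold over 1.5 and separated samples, filled up with the called genes of largest change. Genes named beyond this rule, Adam17 among them, were added after their values were seen. The members and lists were chosen with earlier results of these data known, and single-sample fits at 24 h were added after seeing the data. Samples are numbered by accession order, which pairs nothing. Scripts were tested on simulated data. The summed level of the podocyte list is not reported here.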

Additional observations from a re-analysis of the deposited data

Results flagged for a closer look

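The effect of TWEAK on Egfr differed between the times in the edgeR interaction test. The log2 fold change against vehicle was -0.01 at 6 h and -0.38 at 24 h, a difference of -0.36 (standard error 0.0643, adjusted p = 0.000287), and the TWEAK samples lay below all vehicle samples at 24 h and among them at 6 h. In the fits that left out 1 sample the difference lay between -0.42 and -0.32 and was called in each.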

How the results depend on the processing

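Of 1017 log2 fold changes of the members recomputed under the alternatives, 904 kept their direction and their side of the threshold, 68 lost a call, 16 gained one and 29 changed sign. The number of members called changed by over 1.5 times in 4 comparisons. For NIK SMI1 with TWEAK against TWEAK at 6 h it was 5, with 3 under DESeq2 size factors and 3 to 3 on leaving out 1 sample. Against vehicle at 6 h it was 5, with 2 when the groups compared were fitted alone and 1 to 4 on leaving out 1 sample. For the difference of the TWEAK effect between the times it was 1, with 2 without a filter and 1 to 2 on leaving out 1 sample, and for that of the inhibitor effect it was 0, with 1 under DESeq2, 1 without a filter, 1 for the groups alone and 0 to 1 on leaving out 1 sample. The counts on leaving out 1 sample were 5 to 6 and 7 to 7 for TWEAK at 6 h and 24 h, 4 to 5 for the inhibitor against TWEAK and 4 to 6 against vehicle at 24 h, and 7 to 7 for vehicle over time. Signs changed only for values without a call. On leaving out 1 sample, Egf ranged from -0.97 to 0.0153 with TWEAK at 6 h, from -0.33 to 0.40 and -0.13 to 0.11 with the inhibitor against TWEAK at 6 h and 24 h, from -0.82 to 0.11 for vehicle over time and from -0.44 to 0.30 for the difference of the inhibitor effect. Egfr ranged from -0.0582 to 0.0488 with TWEAK and from -0.0262 to 0.0809 with the inhibitor against vehicle at 6 h, Hbegf from -0.0271 to 0.0172 with TWEAK at 24 h, and the difference of the inhibitor effect from -0.0709 to 0.0582 for Areg, -0.11 to 0.0138 for Btc and -0.045 to 0.0528 for Erbb3, that of the TWEAK effect from -0.028 to 0.0797 for Erbb3. With TWEAK sample 2 alone at 24 h, Egf was at 0.0418 with the inhibitor. The cause of these changes was not tested. Leaving out samples with islet reads over 10 times the median gave no value, as no sample passed that limit. No paired analysis was possible because the labels give no replicate numbers. Depth limits Egf and Epgn, which had at most 37 and 8 reads in a sample.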
